A study of Mus musculus with 12 samples.

Results

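The comparison is between mouse livers in which YAPS127A had been induced for 4 weeks (n = 3) and livers in which it had been induced for 2 weeks (n = 2), with no other group in the test. These are 5 of the 12 libraries of the series, taken by their sample titles, and all 48576 gene symbols of their count files entered. The question is what longer induction adds to, or removes from, the expression profile of a liver that is already overgrown. All 5 mice had the genotype Col-TRE-YAPS127A; Rosa26-LSL-rtTA. An adeno-associated virus (AAV) with the hepatocyte promoter TBG delivered Cre at 8 to 10 weeks of age, Cre switched on the doxycycline-dependent activator rtTA, and doxycycline then drove YAPS127A for 2 or 4 weeks. The age at AAV delivery is given as a range, so the age at collection may differ with the time of induction. The effect of age and of doxycycline itself over those weeks cannot be told apart from that of YAPS127A. Uninduced livers of the same genotype (n = 2) are cited for their levels only, put on the scale of the 5 induced libraries.

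YAP is the transcriptional co-activator at the end of the Hippo pathway. The kinases MST1/2 and LATS1/2 phosphorylate it, which keeps it in the cytoplasm, and the S127A substitution removes one of the sites used for this. In the nucleus YAP binds TEAD factors and activates genes such as Ctgf, Cyr61, Ankrd1 and Amotl2. In mouse liver, active YAP is known for driving hepatocyte proliferation, liver enlargement and a drift of hepatocytes towards a biliary or progenitor expression state.

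The labels name hepatocytes as the cell type, but the RNA was extracted from liver tissue, so other cells of the organ contribute. Values are CPM, that is, read counts scaled to a common library size after correction by the TMM method. Total counts lay between 13368969 and 14459821 per library. Albumin (Alb), the main secreted product of hepatocytes, stood at 22561 CPM or more in every library. The uninduced livers and 2-week replicate 1 had counts of the Y-linked genes and almost none of Xist, whereas 2-week replicate 2 and all 4-week libraries had 29241 to 42451 Xist counts. Sex therefore differs between the groups in part, and a comparison among livers with Xist leaves 2-week replicate 2 as the only liver of its time. Mitochondrially encoded genes took 13.9% and 10.2% of counts at 2 weeks and 11.7%, 10.0% and 7.67% at 4 weeks.

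The 3 livers of 4 weeks were not alike. Replicates 2 and 3 differed from each other by a root mean square of 0.55 on the log2 scale over the tested genes, the smallest value of the 10 library pairs. Replicate 1 differed from them by 1.06 and 0.96, and from the 2-week libraries by 0.85 and 0.75. In gene expression, 4-week replicate 1 was thus nearer to the 2-week livers than to the other livers of its own group. On the first principal component, which carried 51.8% of the variance, it lay at -47.3 beside -53.5 and -26.3 at 2 weeks, while 4-week replicates 2 and 3 lay at 68.2 and 59.0. The labels give no reason for this difference, and genes called without this library are given beside the lists they belong to.

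**Figure D1:**
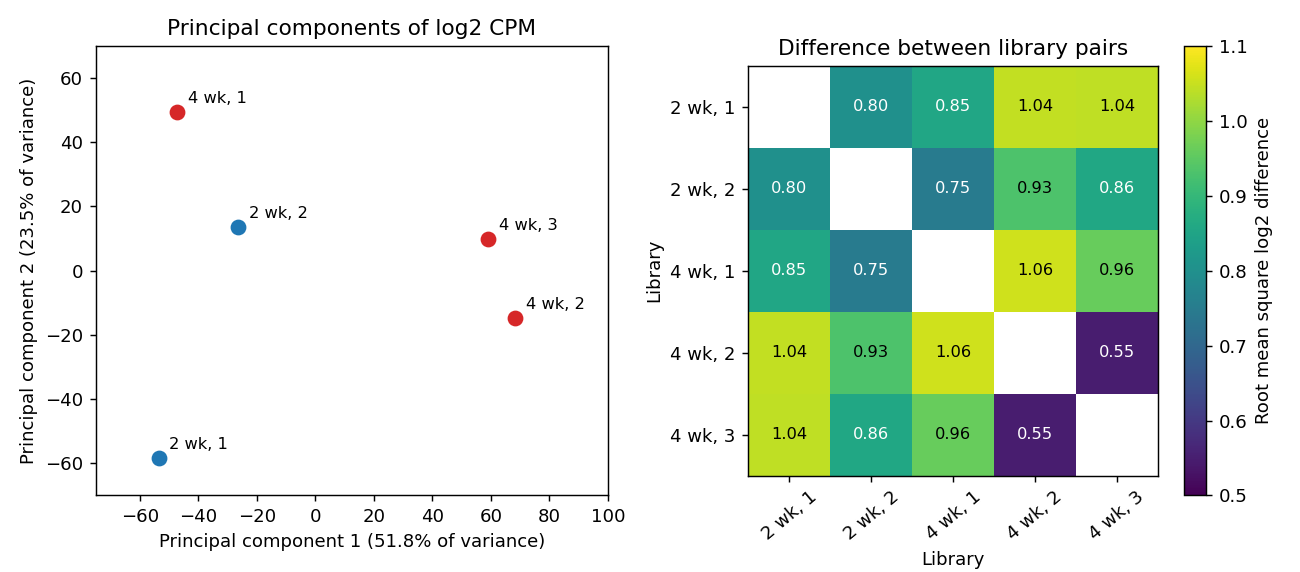
Left, the 5 libraries on the first 2 principal components of log2 CPM (2 weeks in blue, 4 weeks in red); right, the root mean square log2 difference of each pair of libraries. 4-week replicates 2 and 3 lie together (0.55), and 4-week replicate 1 lies on the side of the 2-week libraries.

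Across the whole table no gene passed the test. Of 16670 genes with enough counts, 0 (0%) reached a Benjamini-Hochberg adjusted p under 0.05 in edgeR's quasi-likelihood test, and the smallest adjusted p was 0.0966. At an unadjusted p under 0.05 there were 428 genes higher at 4 weeks (2.57%) and 474 lower (2.84%). In 1761 genes (10.6%) all 4-week libraries lay above both 2-week libraries, and in 1758 (10.5%) all lay below. DESeq2 on the same 5 libraries called 69 genes (0.382%), 6 higher and 63 lower. The median log2 difference over all tested genes was 0.01. With scaling by total counts it was 0.21, so each log2 difference moves up by about that amount on the other scale.

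**Figure D2:**
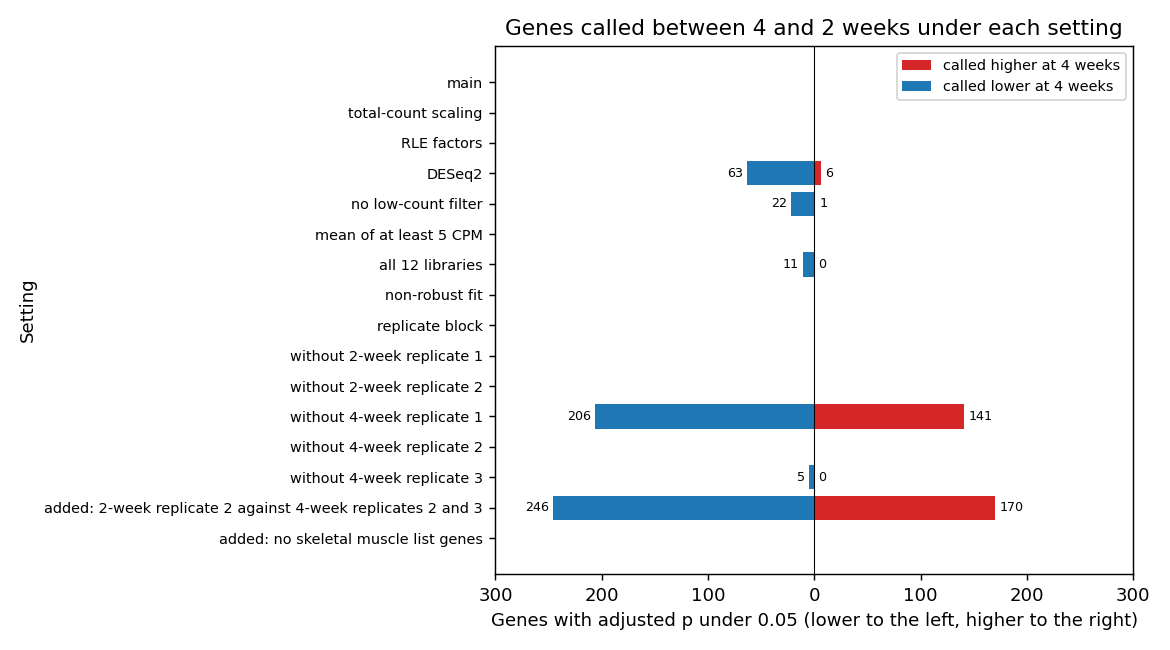
Number of genes with an adjusted p under 0.05 under each setting, higher at 4 weeks to the right (red) and lower to the left (blue). The 347 calls without 4-week replicate 1 stand beside 0 to 5 calls when any other single library is left out.

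The number of edgeR calls depended on 1 library. Without 4-week replicate 1, edgeR called 141 genes higher (0.859% of 16413 tested) and 206 lower (1.26%) at 4 weeks. Leaving out 2-week replicate 1, 2-week replicate 2 or 4-week replicate 2 gave 0 calls each, and leaving out 4-week replicate 3 gave 5. The 347 calls describe how 4-week replicates 2 and 3 differ from the 2-week livers. They do not describe the 4-week group as a whole. Members named from them below were picked after their values were seen.

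Genes of skeletal muscle fibres separated the 2 times in the largest share of members of the 46 lists. The list of 40 such genes had 37 tested members, and 37 of these had lower means at 4 weeks. In 34 members the libraries did not overlap and 33 had an unadjusted p under 0.05 in the lower direction, beside 10.5% and 2.84% of all genes. The median log2 difference was -4.58, and it was -4.53 with Myom2 and Mylk2, which had no count at 4 weeks, set to the smallest difference that 3 counts per library allow. Muscle list genes summed to 1622 and 1777 CPM at 2 weeks and to 74.6, 82.1 and 142 CPM at 4 weeks. An exact permutation test of these 5 sums gave p = 0.1, the smallest that 2 against 3 libraries can give (0.723 after Benjamini-Hochberg adjustment over the 47 sums tested).

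Titin (Ttn), the giant spring protein of the sarcomere, had 573 and 616 CPM at 2 weeks and 8.81, 7.03 and 39.2 CPM at 4 weeks. Its log2 difference was -5.02 ± 0.81 (SE; adjusted p = 0.474). The gene lies on chromosome 2, 76703980 to 76982547, minus strand (GRCm38). Nebulin (Neb), the ruler of the thin filament, had 178 and 167 CPM at 2 weeks and 22.9, 41.3 and 35.3 CPM at 4 weeks. Skeletal alpha-actin (Acta1) had 69.0 and 97.2 CPM against 0.222, 0.268 and 3.19 CPM. In each of these genes the 2 groups were far apart, and 4-week replicate 3 was the highest of its group for Ttn and Acta1.

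The fast myosin heavy chain Myh4 had 61.6 and 17.6 CPM at 2 weeks, no count in 4-week replicates 1 and 2 and 0.13 CPM in replicate 3. Myh1, another fast chain, had 121 and 186 CPM against 0.37, 0.268 and 4.62 CPM. Atp2a1, the calcium pump of the fast-fibre sarcoplasmic reticulum, had 51.5 and 45.6 CPM against 1.11, 0.804 and 2.28 CPM, with a log2 difference of -5.10 ± 0.42 (adjusted p = 0.0966). Myosin-binding protein C (Mybpc1) and myomesin 1 (Myom1) had the same adjusted p, with log2 differences of -4.77 ± 0.36 and -3.03 ± 0.24. Myom2 was at least 31.6-fold lower at 4 weeks and Mylk2 at least 11.3-fold lower, taking 3 counts per library as the floor of each 4-week library.

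These genes were called in several of the other fits. DESeq2 on the 5 libraries called 29 members of the muscle list lower, beside 0.382% of all genes in either direction. The list does not hold every muscle gene, and several further sarcomere genes were among the genes that DESeq2 called lower. Acta1, Myh1, Atp2a1, Ttn and Myh7 were the 5 genes called lower without 4-week replicate 3. In the fit over all 12 libraries, 11 genes were called lower (0.0612%), and all but the gene model Gm10499 were of the muscle list: Neb, Tpm2, Atp2a1, Myh4, Myom1, Mybpc1, Cmya5, Des, Ttn and Ryr1. Without 4-week replicate 1, 23 of 37 tested muscle list members were called lower, beside 1.26% of all genes. Ttn (adjusted p = 0.068), Acta1 (adjusted p = 0.051) and Myh1 (adjusted p = 0.072) were not among them.

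Apart from Neb, the muscle genes named above were higher at 2 weeks than in uninduced livers. The muscle list summed to 266 and 255 CPM in uninduced livers, below both 2-week livers and above the 3 livers of 4 weeks. Neb alone made up 236 and 214 CPM of the uninduced sums, and it was higher there than in the 2-week livers (178 and 167 CPM). The place of the uninduced sums above those of 4 weeks rested on Neb. Atp2a1, Myh1 and Myh4 had no count in uninduced livers, and Ttn stood at 1.72 and 1.77 CPM. Whether muscle tissue entered the 2-week samples at collection was not tested.

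**Figure D3:**
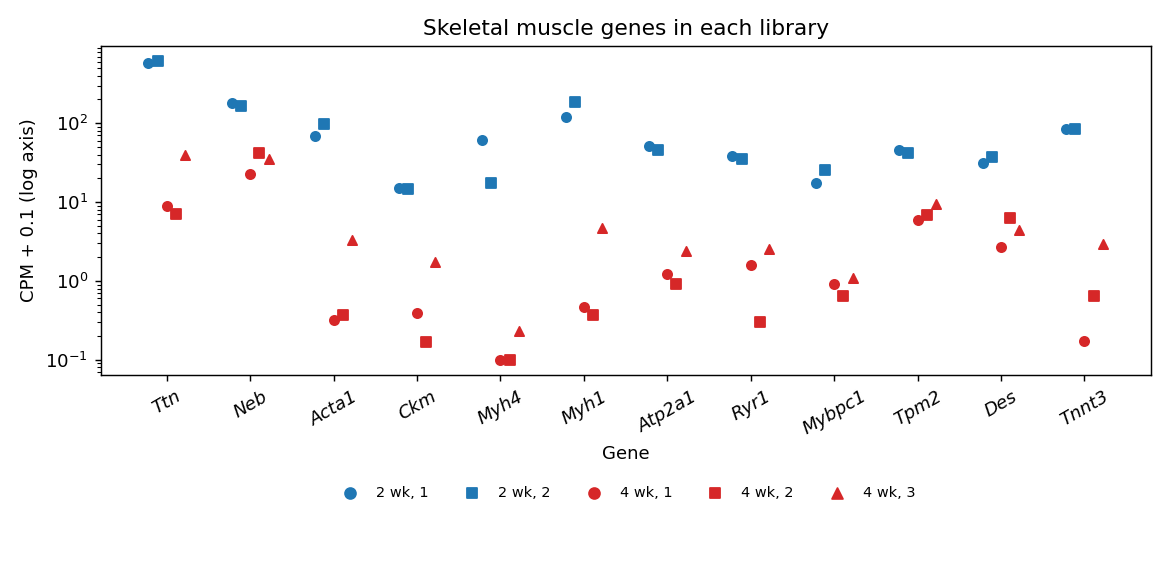
CPM plus 0.1, on a log axis, of 12 skeletal muscle genes in each library (2 weeks in blue, 4 weeks in red, one marker shape per replicate). For all 12 genes both 2-week libraries lie above the 3 libraries of 4 weeks; Ttn has 573 and 616 CPM against 7.03 to 39.2 CPM.

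Genes of Kupffer cells, the resident macrophages of the liver, had lower means at 4 weeks throughout their list. All 14 listed markers were tested and all 14 had negative log2 differences, with a median of -1.35. In 10 the groups did not overlap, and 8 had an unadjusted p under 0.05, beside 10.5% and 2.84% of all genes in that direction. Their sum was 3335 and 2496 CPM at 2 weeks and 2081, 853 and 697 CPM at 4 weeks (exact permutation p = 0.2, adjusted p = 0.723). The order placed 4-week replicate 1 between the 2-week livers and the other livers of 4 weeks. The uninduced livers summed to 654 and 618 CPM, below all 5 induced livers, but single markers did not all share this order. In bulk RNA, fewer cells of a type and less RNA per cell cannot be told apart.

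Csf1r, the receptor for the growth factor that macrophages need to survive, had 588 and 497 CPM at 2 weeks and 417, 191 and 223 CPM at 4 weeks (log2 difference -0.97 ± 0.37, adjusted p = 0.84). Cd5l, a secreted protein made by tissue macrophages, had 410 and 334 CPM against 158, 73.8 and 36.0 CPM (log2 difference -2.06 ± 0.57, adjusted p = 0.84). DESeq2 on the 5 libraries called Cd5l lower (adjusted p = 0.0495). Clec4f, a lectin restricted to Kupffer cells, had 188 and 193 CPM against 116, 45.1 and 21.2 CPM. In all of these the 4-week libraries lay below both 2-week libraries. The complement C1q chains behaved alike: C1qa, C1qb and C1qc had log2 differences of -1.10, -1.07 and -1.27, and all had an unadjusted p under 0.05. The scavenger receptor Cd163 showed the split within the 4-week group, with 349 and 188 CPM at 2 weeks and 273, 15.8 and 10.4 CPM at 4 weeks. When 4-week replicate 1 was left out, edgeR called 9 of the 14 markers lower, beside 1.26% of all genes. These were Clec4f, Vsig4, Cd5l, Adgre1, Csf1r, Cd163, C1qa, C1qb and C1qc. Uninduced livers had 57.7 and 64.3 CPM of Clec4f, 85.7 and 103 CPM of Cd5l and 46.1 and 43.8 CPM of Cd163. For these genes 4-week replicates 2 and 3 lay below the uninduced livers. For Csf1r and the C1q chains both replicates lay above the uninduced livers, and for Vsig4 and Adgre1 they overlapped.

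Markers of monocytes and recruited macrophages did not move as a block. Of 17 tested members 7 were higher and 10 lower at 4 weeks, and 2 had an unadjusted p under 0.05. These were Cybb, a subunit of the phagocyte oxidase (147 and 135 CPM against 76.5, 77.4 and 49.7 CPM), and lysozyme (Lyz2; 207 and 219 CPM against 146, 155 and 146 CPM). The summed level of this list was set by Spp1 (osteopontin), which biliary cells and macrophages both make. Spp1 had 544 and 1162 CPM at 2 weeks and 356, 3197 and 3190 CPM at 4 weeks, so the groups overlapped (log2 difference 1.40 ± 0.93, adjusted p = 0.84). Spp1 had 76.95 and 87.9 CPM in uninduced livers. Without Spp1 the list summed to 618 and 745 CPM at 2 weeks and 500.3, 545 and 499.7 CPM at 4 weeks, so its difference turned from higher to lower at 4 weeks. When 4-week replicate 1 was dropped, edgeR called 1 of 17 members higher, beside 0.859% of all genes. It was the tetraspanin Cd9 (40.3 and 43.9 CPM against 93.8 and 80.7 CPM in replicates 2 and 3, adjusted p = 0.039).

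Among 20 tested chemokines and inflammatory cytokines, 11 had positive and 9 negative log2 differences. At an unadjusted p under 0.05, 1 was higher and 3 lower, beside 2.57% and 2.84% of all genes. The 3 lower members follow. Interleukin 1 beta (Il1b) had 17.9 and 13.9 CPM at 2 weeks and 8.29, 5.29 and 3.78 CPM at 4 weeks. Cxcl14 had 13.8 and 16.7 CPM against 6.81, 7.64 and 7.75 CPM, and Tgfb1 62.9 and 69.3 CPM against 43.6, 48.5 and 38.5 CPM. In all 3 the groups did not overlap, as in 10.5% of all genes in that direction. The most abundant members were Ccl9, with 406 and 276 CPM against 319, 108 and 104 CPM, and Cxcl12, with 226 and 194 CPM against 195, 261 and 206 CPM. Without 4-week replicate 1, the monocyte attractant Ccl2 (3.72 and 3.56 CPM against 24.1 and 33.7 CPM in replicates 2 and 3) and the neutrophil attractant Cxcl1 (8.77 and 7.32 CPM against 34.8 and 32.4 CPM) were called higher, and Ccl6, Ccl9 and Il1b lower. In 4-week replicate 1 Ccl2 was at 1.92 CPM and Cxcl1 at 3.48 CPM, both below the 2-week libraries. Uninduced livers had 0.115 and 1.77 CPM of Ccl2, below all induced livers, and 54.1 and 66.2 CPM of Cxcl1, above all.

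Cholangiocyte and progenitor genes, which mark bile duct cells and hepatocytes with biliary features, had positive log2 differences in nearly the whole list, with a split within the 4-week group. Their sum was 2767 and 3690 CPM at 2 weeks and 2577, 5711 and 6446 CPM at 4 weeks (exact permutation p = 0.4), against 829 and 1027 CPM in uninduced livers. Spp1 carried much of this sum. Without it the list summed to 2223 and 2528 CPM at 2 weeks and 2221, 2513 and 3256 CPM at 4 weeks, so that only 4-week replicate 3 lay above the 2-week livers. Of 25 tested members 24 had positive log2 differences, with a median of 1.39, but only 3 had an unadjusted p under 0.05, beside 2.57% of all genes. These were the tight junction gene Cldn7, the glucose transporter Slc5a1 and the keratin Krt23, none above 3.07 CPM at 2 weeks. With all 5 libraries DESeq2 called Cldn7 higher (adjusted p = 0.022). The most abundant members were Spp1 and the simple-epithelial keratin Krt18, which had 772 and 690 CPM at 2 weeks and 586, 534 and 676 CPM at 4 weeks.

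Epcam, an adhesion molecule of biliary and progenitor cells (chromosome 17, 87635979 to 87651129, plus strand, GRCm38), had 6.04 and 5.72 CPM at 2 weeks and 1.11, 37.2 and 37.0 CPM at 4 weeks. Sox9, a transcription factor of ducts and progenitors, had 103 and 195 CPM against 98.8, 251 and 338 CPM. The duct keratin Krt19 had 3.14 and 8.58 CPM against 3.33, 22.1 and 20.8 CPM. In each, 4-week replicate 1 lay within or below the range of 2 weeks and the other livers above it. In the fit lacking 4-week replicate 1 edgeR called 7 of the 25 members higher, beside 0.859% of all genes. They were Epcam, Cldn7, Slc5a1, the bile chloride channel Cftr, the secretin receptor Sctr, the annexin Anxa13 and the epithelial transcription factor Ehf. The log2 differences among them ran from 2.49 for Cftr to 5.39 for Sctr, and that of Epcam was 2.66 (adjusted p = 0.019). From the list of keratins and junctions, E-cadherin (Cdh1; 96.6 and 107 CPM against 42.4, 335 and 305 CPM) and Cldn6 were called higher in that fit as well. Its most abundant member, the desmosomal cadherin Dsg2, had 679 and 681 CPM at 2 weeks and 678, 1009 and 968 CPM at 4 weeks.

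The fetal and imprinted growth genes held members that went opposite ways in the same livers. H19, an imprinted RNA that the fetal liver makes in quantity, had 46.0 and 103 CPM at 2 weeks and 44.6, 645 and 802 CPM at 4 weeks (log2 difference 2.74 ± 1.17, adjusted p = 0.84). Its imprinted neighbour Igf2, a fetal growth factor, had 13.4 and 41.1 CPM against 27.7, 201 and 334 CPM (log2 difference 2.78 ± 1.08, adjusted p = 0.84). The genes lie on chromosome 7 at 142575529 to 142578143 and 142650766 to 142666816, both on the minus strand (GRCm38). The glypican Gpc3, a cell-surface proteoglycan of fetal liver, had 1303 and 1251 CPM at 2 weeks and 1870, 172 and 332 CPM at 4 weeks, against 1.61 and 1.39 CPM in uninduced livers. Gpc3 was thus highest in 4-week replicate 1 and lowest in the livers with most H19. Without that replicate H19 was called higher (adjusted p = 0.03) and Gpc3 lower (adjusted p = 0.04). Alpha-fetoprotein (Afp) stayed low and scattered, at 1.24 and 16.9 CPM against 9.55, 3.82 and 23.5 CPM.

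**Figure D4:**
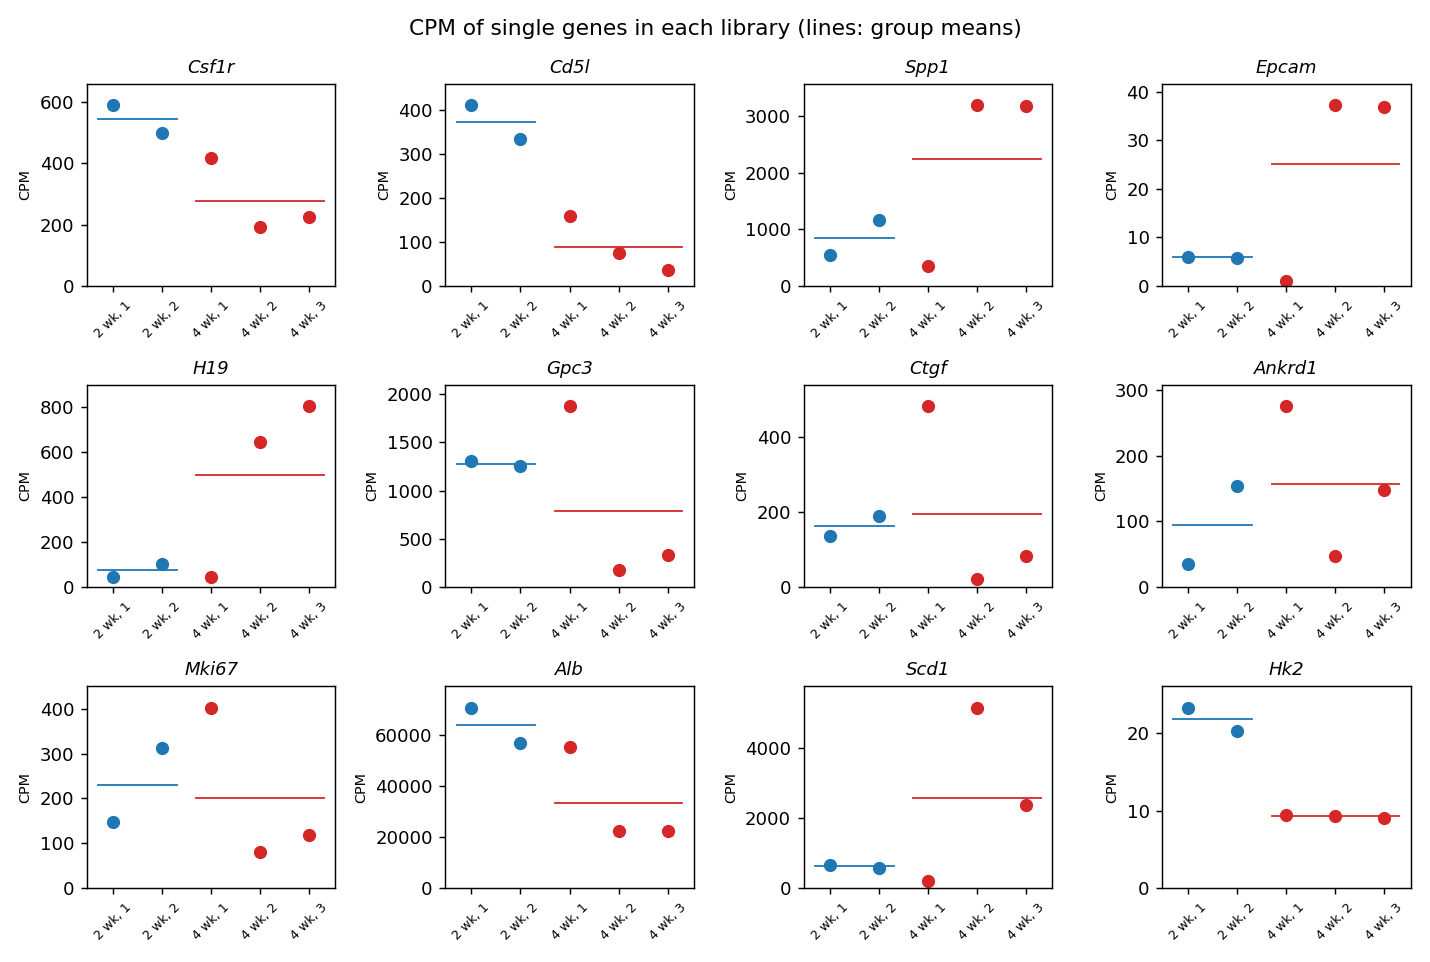
CPM of 12 genes in each library, with horizontal lines at the group means (2 weeks in blue, 4 weeks in red). Csf1r, Cd5l and Hk2 separate the groups, whereas Spp1, Epcam, H19, Gpc3, Ctgf, Mki67, Alb and Scd1 split 4-week replicate 1 from replicates 2 and 3.

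For direct targets of YAP and its relative TAZ the promoters are shown first, since TEAD factors bring YAP to DNA at copies of the MCAT element. Windows from 250 bases before to 50 bases after the start of transcription were taken from RefSeq (GRCm38.p6) for 19 of the 26 listed targets. The letters GGAATG, on either strand, occurred in the windows of 9 of these 19 genes (47.4%), against 16.6% of all 27025 genes with a window and 14.7% of all 32851 windows. A match is no evidence of binding. The windows of 3 classic targets follow, 5′ to 3′ on the coding strand, with GGAATG or its reverse complement CATTCC in capitals.
Cyr61, chr3:145649936-145650235, minus strand: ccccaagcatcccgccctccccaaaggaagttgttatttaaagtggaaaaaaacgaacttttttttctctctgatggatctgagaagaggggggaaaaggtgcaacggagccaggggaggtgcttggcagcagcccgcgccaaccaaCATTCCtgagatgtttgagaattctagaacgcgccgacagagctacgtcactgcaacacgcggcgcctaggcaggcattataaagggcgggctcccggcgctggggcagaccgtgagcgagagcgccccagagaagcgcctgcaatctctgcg
Ankrd1, chr19:36119795-36120094, minus strand: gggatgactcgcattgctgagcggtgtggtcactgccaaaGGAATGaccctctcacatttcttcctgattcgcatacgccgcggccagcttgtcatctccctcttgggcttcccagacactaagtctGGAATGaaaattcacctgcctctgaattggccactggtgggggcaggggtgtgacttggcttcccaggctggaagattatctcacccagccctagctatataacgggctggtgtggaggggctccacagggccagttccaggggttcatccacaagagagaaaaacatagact
Amotl2, chr9:102717554-102717853, plus strand: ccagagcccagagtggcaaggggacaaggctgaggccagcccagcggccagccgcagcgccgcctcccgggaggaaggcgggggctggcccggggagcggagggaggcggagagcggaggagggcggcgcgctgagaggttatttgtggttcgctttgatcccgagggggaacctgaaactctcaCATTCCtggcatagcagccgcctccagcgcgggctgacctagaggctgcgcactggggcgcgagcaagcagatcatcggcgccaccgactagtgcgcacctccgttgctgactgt

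The YAP/TAZ targets showed no common direction between the times. Of 25 tested members 12 were higher and 13 lower, the median log2 difference was -0.07, and 1 in each direction had an unadjusted p under 0.05. Their sum was 3014 and 3456 CPM at 2 weeks and 4202, 1746 and 2666 CPM at 4 weeks (exact permutation p = 0.7), against 785 and 784 CPM in uninduced livers. The median was -0.33 without 4-week replicate 1, with 0 of 25 called. All 5 induced livers thus lay above the uninduced ones, with the highest and the lowest of the induced values both at 4 weeks.

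Ankrd1, whose window holds GGAATG at 2 places, had 35.7 and 153 CPM at 2 weeks and 275, 46.7 and 148 CPM at 4 weeks. Ctgf, a secreted matrix protein, had 137 and 190 CPM against 483, 20.6 and 82.4 CPM. Cyr61, its relative, had 146 and 213 CPM against 168, 86.4 and 159 CPM (log2 difference -0.38 ± 0.34, adjusted p = 0.849). The groups overlapped in all 3, and 4-week replicate 1 was the highest of the 3 livers of 4 weeks in each. Amotl2, an angiomotin that binds YAP and restrains it, had 386 and 483 CPM against 589, 102 and 274 CPM, and Wwc1, an upstream activator of LATS, had 673 and 694 CPM against 807, 270 and 460 CPM. The members past the unadjusted threshold were the receptor kinase Axl (108 and 124 CPM against 81.3, 69.7 and 60.8 CPM, log2 difference -0.72 ± 0.18, adjusted p = 0.84) and the ectonucleotidase Nt5e (4.96 and 3.70 CPM against 10.96, 7.77 and 8.07 CPM).

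Yap1 itself had 93.6 and 102 CPM at 2 weeks and 99.9, 76.6 and 80.7 CPM at 4 weeks, beside 103 and 96.5 CPM in uninduced livers, so the induced and uninduced levels overlapped. Whether reads of the transgene are counted under this symbol is not given in the sources used here, so Yap1 does not check the induction. Of 26 Hippo pathway core genes and regulators, 0 had an unadjusted p under 0.05, and their median log2 difference was -0.07. Of 16 Notch pathway genes 0 did. Notch2, the receptor of bile duct formation, had 208 and 198 CPM at 2 weeks and 202, 260 and 276 CPM at 4 weeks, and the ligand Jag1 had 86.4 and 231 CPM against 227, 65.5 and 107 CPM.

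Proliferation genes had lower medians at 4 weeks, and none passed the test with all 5 libraries. None of 30 genes of mitosis and 0 of 32 of DNA replication had an unadjusted p under 0.05. Of the replication genes 28 had negative log2 differences, with a median of -0.41, and in 4 all 4-week libraries lay below, beside 10.5% of all genes. Of the mitosis genes 23 had negative log2 differences, with a median of -0.19. Without 4-week replicate 1 the medians were -0.79 for replication and -1.08 for mitosis, beside 0.0016 over all genes. The mitosis list summed to 461 and 946 CPM at 2 weeks and to 1205, 246 and 400 CPM at 4 weeks, against 52.6 and 38.6 CPM in uninduced livers. Mki67, the classic marker of cycling cells, had 146.5 and 311 CPM at 2 weeks and 402, 79.7 and 119 CPM at 4 weeks, and topoisomerase Top2a had 29.4 and 77.2 CPM against 73.8, 20.6 and 37.4 CPM. The groups overlapped in both genes, and 4-week replicate 2 was the lowest library of the 5. Of the replication genes, Mcm6, part of the replicative helicase, had 62.0 and 63.1 CPM against 62.9, 32.0 and 50.2 CPM, and thymidine kinase Tk1 had 69.9 and 51.5 CPM against 64.0, 28.2 and 44.6 CPM. Leaving out 4-week replicate 1, edgeR called 1 of 30 mitosis genes lower, beside 1.26% of all genes. It was the cytokinesis factor Ect2 (adjusted p = 0.046).

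Targets of p53, the transcription factor of the DNA damage response, had lower means at 4 weeks in most members. Of 20 tested 5 had an unadjusted p under 0.05, all lower, beside 2.84% of all genes. Gdf15, a stress hormone, had 23.5 and 15.5 CPM at 2 weeks and 7.26, 6.10 and 5.14 CPM at 4 weeks (log2 difference -1.66 ± 0.28, adjusted p = 0.532), and DESeq2 called it lower. The ectodysplasin receptor Eda2r had 20.1 and 21.0 CPM against 12.1, 9.58 and 6.38 CPM. The pro-apoptotic Bax had 37.8 and 31.2 CPM against 24.4, 24.1 and 21.9 CPM. Pmaip1 and Zmat3 completed the 5, and in all 5 the groups did not overlap. The cell cycle inhibitor Cdkn1a did not follow them, with 56.3 and 79.3 CPM at 2 weeks and 66.9, 43.7 and 56.7 CPM at 4 weeks, beside 1.03 and 1.01 CPM in uninduced livers. The most abundant members were Trp53inp1 (111 and 101 CPM against 91.2, 165 and 115 CPM) and Ccng1 (128 and 117 CPM against 126, 70.3 and 51.6 CPM). In the fit lacking 4-week replicate 1, edgeR called 3 of the 20 lower, beside 1.26% of all genes: Gdf15 (adjusted p = 0.047), the antiproliferative Btg2 (adjusted p = 0.023) and Ckap2 (adjusted p = 0.03). Btg2 had 119 and 96.1 CPM at 2 weeks and 98.5, 35.6 and 38.5 CPM at 4 weeks.

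Secreted proteins and transcription factors of hepatocytes showed no common direction. Of 26 tested members 13 were higher and 13 lower, and 0 had an unadjusted p under 0.05. Alb had 70672 and 57017 CPM at 2 weeks and 55240, 22562 and 22561 CPM at 4 weeks (log2 difference -0.93, adjusted p = 0.84). Apob, the protein of very-low-density lipoprotein, had 17621 and 13139 CPM against 18304, 9952 and 8538 CPM. Both were lowest in 4-week replicates 2 and 3. The hepatocyte transcription factor Hnf4a varied less, at 697 and 431 CPM against 564, 459 and 449 CPM.

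Lists of lipid and drug metabolism did not move as a whole. Xenobiotic metabolism genes summed to 9911 and 5322 CPM at 2 weeks and 6025, 6649 and 5454 CPM at 4 weeks, and genes of fatty acid oxidation to 4402 and 3607 CPM against 3890, 4081 and 3482 CPM. Single genes were far apart within the 4-week group. Scd1, which desaturates fatty acids, had 667 and 591 CPM at 2 weeks and 208, 5154 and 2372 CPM at 4 weeks. The drug-metabolising Cyp2e1, a gene of hepatocytes near the central vein, had 285 and 15.0 CPM against 7.70, 476 and 188 CPM. Cyp2c29 had 30.4 and 18.5 CPM against 0.962, 430 and 161 CPM, beside 1802 and 1549 CPM in uninduced livers. Cyp7a1, the rate-limiting enzyme of bile acid synthesis, had 59.97 and 10.5 CPM against 0.296, 147 and 52.0 CPM. In all 4 genes 4-week replicate 1 was the lowest liver of the 5 and 4-week replicate 2 the highest, the reverse of the order of Alb and Apob between these livers. They were chosen in part after their values were seen. Glutamine synthetase (Glul), confined to the hepatocytes around the central vein, did not share this order, with 120 and 67.2 CPM at 2 weeks and 62.9, 80.1 and 39.9 CPM at 4 weeks, beside 1059 and 1223 CPM in uninduced livers.

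With 4-week replicate 1 left out, edgeR called Scd1, Cyp2c29, the ketone body enzyme Bdh1, the fatty acid hydroxylases Cyp4a10 and Cyp4a14, the bile acid repressor Nr0b2, the steroid enzyme Hsd17b6 and the apolipoprotein Apoa4 higher at 4 weeks. It called Etnppl of the periportal list (160 and 100.2 CPM against 237, 47.3 and 46.9 CPM) and the cholesterol synthesis enzyme Hsd17b7 (67.8 and 73.6 CPM against 91.5, 26.6 and 28.3 CPM) lower. For Cyp4a14 the libraries had 0 and 0.0697 CPM at 2 weeks and 0, 28.6 and 12.2 CPM at 4 weeks. Uninduced livers had 0.919 and 2.14 CPM of Cyp4a14 and 25.96 and 19.9 CPM of Cyp4a10. Both genes were higher in 4-week replicates 2 and 3 (Cyp4a10 52.8 and 26.4 CPM). In uninduced livers Bdh1 stood at 181 and 159.7 CPM, Apoa4 at 71.6 and 77.3 CPM and Nr0b2 at 16.2 and 54.8 CPM. For these genes and Cyp2c29 both replicates lay below the uninduced livers. For Scd1 (3608 and 6723 CPM in uninduced livers) and Hsd17b6 (78.4 and 14.4 CPM) they overlapped. Members of the Cyp2a, Cyp2c and Cyp4a families have near-identical copies between which reads can be split, so single members are uncertain. Of 30 genes of fatty acid oxidation, 2 were higher at an unadjusted p under 0.05, beside 2.57% of all genes. These were Cyp4a10 and Cyp4a14. With all 5 libraries DESeq2 called Cyp4a10 higher (adjusted p = 0.00815).

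The urea cycle gene Cps1 had 4780 and 2443 CPM at 2 weeks and 2169, 1975 and 1841 CPM at 4 weeks (log2 difference -0.86, adjusted p = 0.84), and the methionine enzyme Mat1a had 3137 and 1501 CPM against 1598, 1044 and 1048 CPM. In both, 2-week replicate 1, the library with Y-linked counts, was the highest. Hexokinase 2 (Hk2), which adult hepatocytes hardly make, was even within groups, with 23.3 and 20.4 CPM at 2 weeks and 9.48, 9.31 and 9.05 CPM at 4 weeks, beside 1.95 and 3.66 CPM in uninduced livers. Its log2 difference was -1.23 ± 0.19 (adjusted p = 0.383), and DESeq2 called it lower. With 4-week replicate 1 dropped, edgeR called 2 of 25 genes of glycolysis and gluconeogenesis lower, beside 1.26% of all genes. These were Hk2 (adjusted p = 0.046) and the regulatory kinase Pfkfb3 (48.6 and 55.3 CPM against 39.9, 17.9 and 22.3 CPM, adjusted p = 0.032). Skeletal muscle also makes Hk2, and its part in this value was not tested.

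Sex-biased genes are given in view of the mixed sexes. Of 12 tested male-biased genes 4 were lower at an unadjusted p under 0.05, and of 14 female-biased genes 2 were higher, beside 2.84% and 2.57% of all genes. The 4 were Mup20, C6, Selenbp2 and Gstp1. Mup20, a male urinary protein, had 127 and 20.0 CPM at 2 weeks and 8.74, 5.29 and 4.10 CPM at 4 weeks, and the complement gene C6 had 129 and 42.05 CPM against 31.5, 17.3 and 4.88 CPM. In both, 2-week replicate 1 was the highest. DESeq2 on the 5 libraries called Mup20 lower (adjusted p = 9.8e-05). The male-biased Serpina1e had 695 and 658 CPM against 178, 1815 and 2154 CPM, so it did not follow the Xist counts alone. The steroid hydroxylase Cyp2a4, which has a near-identical copy, had 0.0827 and 0.488 CPM at 2 weeks and 0, 248 and 197 CPM at 4 weeks. Serpina1e and Cyp2a4 were called higher without 4-week replicate 1, the only calls of the 2 lists in that fit. Uninduced livers had 17452 and 18641 CPM of Serpina1e and 0.69 and 0.38 CPM of Cyp2a4. The growth hormone target Cux2, a female-biased factor, had 90.3 and 78.8 CPM against 102, 59.3 and 64.5 CPM. The uninduced livers, which like 2-week replicate 1 had Y-linked counts, had 1.38 and 0 CPM of Cux2. Its level therefore did not follow the Xist counts alone either.

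Endothelial and mesenchymal markers gave no call at an adjusted p under 0.05 with all 5 libraries. Sinusoidal endothelial markers summed to 1537 and 1240 CPM at 2 weeks and 1209, 760 and 504 CPM at 4 weeks (exact permutation p = 0.2). In 8 of 19 the 4-week libraries all lay below, beside 10.5% of all genes. VE-cadherin (Cdh5) had 208 and 151 CPM against 110, 76.2 and 45.5 CPM. The mannose receptor Mrc1, which Kupffer cells share, had 272 and 233 CPM against 187, 67.5 and 41.2 CPM, and the scavenger receptor Stab1 had 146 and 146 CPM against 130, 87.4 and 86.4 CPM. The median log2 difference of this list was -0.64, and -0.99 without 4-week replicate 1, where Mrc1 was called lower (adjusted p = 0.027). Stellate cell and myofibroblast markers summed to 776 and 774 CPM against 410, 1060 and 609 CPM, and collagen Col1a1 had 67.2 and 174 CPM against 59.6, 286 and 144 CPM, with overlap in both. Ecm1 (117 and 85.6 CPM against 75.1, 40.9 and 33.2 CPM) and desmin (Des), also of the muscle list, were called lower without 4-week replicate 1. Fibronectin (Fn1), the most abundant matrix gene, had 4808 and 5960 CPM against 3711, 6354 and 6005 CPM.

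**Figure D5:**
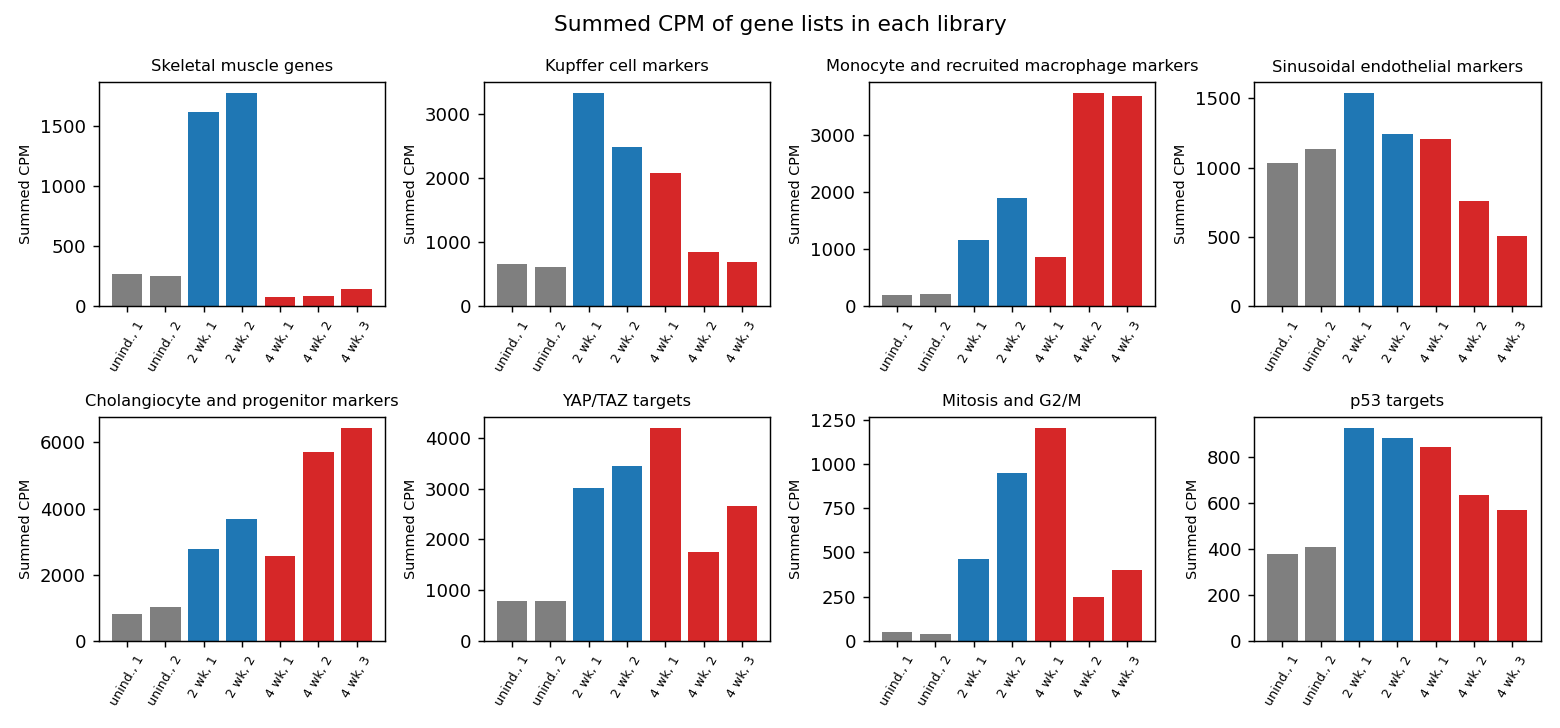
Summed CPM of 8 gene lists in each library of the YAP model, on the scale of the 5 induced libraries (uninduced in grey, 2 weeks in blue, 4 weeks in red). The muscle list is highest in the 2-week livers (1622 and 1777 CPM), and 4-week replicate 1 lies nearer to the 2-week livers than to replicates 2 and 3 for Kupffer cell, cholangiocyte and p53 genes.

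Groups of general cell function gave no call. The median log2 difference was -0.17 for 29 nuclear genes of oxidative phosphorylation and -0.15 for 28 cytosolic ribosomal proteins. It was -0.17 for 30 genes of ribosome biogenesis, -0.54 for 13 mitochondrially encoded genes and 0.01 for 22 chaperones of the endoplasmic reticulum. With total-count scaling the medians were 0.042, 0.038, 0.013, -0.35 and 0.19 in the same order, beside 0.21 over all genes. The medians of oxidative phosphorylation, ribosomal proteins and ribosome biogenesis thus changed sign with the scaling. In these 5 lists 1 gene in all, of ribosome biogenesis, had an unadjusted p under 0.05. In ribosome biogenesis 28 of the 30 had negative log2 differences, and in 11 all 4-week libraries lay below, beside 10.5% of all genes. The sum of that list was 2157 and 2307 CPM at 2 weeks and 1970, 1962 and 2035 CPM at 4 weeks (exact permutation p = 0.1, the smallest possible, adjusted p = 0.723). Of the mitochondrially encoded genes 12 of 13 had negative log2 differences, and without 4-week replicate 1 their median was -0.86. Their sum was 132070 and 75294 CPM at 2 weeks and 93542, 70474 and 51980 CPM at 4 weeks, with overlap. Of 26 acute phase genes 4 were lower at an unadjusted p under 0.05, beside 2.84% of all genes, among them the metallothioneins Mt1 (367 and 358 CPM against 180, 237 and 156 CPM) and Mt2 (185 and 153 CPM against 106, 88.0 and 69.2 CPM). The acute phase regulator Cebpb had 77.2 and 69.7 CPM against 49.5, 47.2 and 47.5 CPM, with no overlap (log2 difference -0.61 ± 0.14, adjusted p = 0.84).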

How the data were processed

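The deposited values are whole-number read counts per gene symbol, 1 column per library, used as given; they are raw counts per the file contents, and no library was pooled. The submitters' processing notes list the build GRCm38 (mm10) and, without their roles, the tools DESeq2 1.20.0, featureCounts 1.6.3, HISAT2 2.1.0 and Trim Galore 0.4.1. The annotation release, strand setting and treatment of reads with several matches are not given in the sources used here. Without a known strand setting, overlapping and antisense genes cannot be told apart, and near-identical copies may share reads. Liver RNA was purified by TRIzol and an RNeasy kit, treated with DNase and made into libraries with a Nugen Ovation kit, per the labels' protocols.

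Groups came from the sample labels. The 5 libraries were filtered with filterByExpr, scaled by TMM and tested with edgeR 4.0.16 (quasi-likelihood, robust, two-sided) in R 4.3.3, 4 weeks against 2 weeks, with Benjamini-Hochberg adjustment over 16670 genes and a call at an adjusted p under 0.05. The fit had 3 residual degrees of freedom and a common biological coefficient of variation of 34.2%. DESeq2 1.42.0 was an alternative. SE is the standard error of the log2 difference. Sums of CPM over a list were compared by two-sided exact permutation tests over the 5 libraries, which cannot reach p = 0.05. Chi-square per degree of freedom between libraries of a group was 20.7 to 107, so none is a copy of another. The labels do not say how the mice of a group were related, so p-values measure the spread between these samples. Floors of 3 counts cover counting error only. On simulated data the fits, with and without 4-week replicate 1, recovered most changed genes. Only large changes, in genes that were not lowly expressed, were simulated, and part of the runs used less spread than the real one. There 4-week replicate 1 was drawn like any other library, so this recovery does not give the power for the real libraries. False calls at an adjusted p under 0.05 were a larger share of the calls than the nominal one. Calls near the threshold are therefore less certain than their adjusted p. Uninduced libraries were scaled by TMM over 7 libraries and multiplied by 1 factor, 1.14, which puts the induced libraries within 0.419% of their values in the fit.

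The text names, from each of 46 gene lists, all called members or, with none called, the 2 with the highest mean CPM, together with a fixed set of known genes (Yap1, Cyr61, Ctgf, Ankrd1, Gpc3, Afp, Sox9, Krt19, Epcam, Spp1, Alb, Hnf4a, Glul, Cyp7a1, Mki67, Cdkn1a, Igf2, H19, Csf1r, Col1a1, Myh4, Acta1, Xist, Ddx3y, Hsd3b5 and Cux2). The rule's 12 largest rises and falls among called genes took none, since none was called. Some genes the rule takes are not reported here. Other named genes were chosen after their values were seen. The comparison and the lists were chosen with earlier results of these data known. Of the symbols, 46338 (95.4%) matched 1 gene of GENCODE vM21, which gave coordinates.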

Additional observations from a re-analysis of the deposited data

How the results depend on the processing

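With all 5 libraries, 0 genes were called under TMM, total-count or RLE scaling, with a mean of at least 5 CPM, or with a non-robust fit. DESeq2 called 69 genes (6 higher, 63 lower), the fit without a low-count filter 23 (1 and 22) and the fit over all 12 libraries 11 (all lower). Leaving out each library in turn gave 0 to 347 calls, 0 to 141 higher and 0 to 206 lower, the upper ends without 4-week replicate 1. Leaving an arm with 1 library assumes that it varies like the rest. Alternatives added after seeing the data were 2-week replicate 2 against 4-week replicates 2 and 3, with 416 calls (170 higher, 246 lower), and the fit without the muscle list, with 0. At an unadjusted p under 0.05, total-count scaling gave 677 genes higher and 262 lower, where the reported fit gave 428 and 474. The replicate block gave 0 calls, with 140 genes higher and 242 lower at that threshold. The labels share replicate numbers 1 and 2, and deviations of same-numbered libraries correlated at 0.07 and -0.04. With 2 libraries at 2 weeks their deviations mirror each other, so this cannot tell whether same-numbered samples share more than a number. The block leaves 1 residual degree of freedom. Depth limits genes under about 0.2 CPM, where 3 counts are the floor.

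Of 2272 log2 differences of 176 named genes under the other settings of the fit, 71 changed sign and 116 passed the threshold, as did 10 and 56 of 334 under the settings added after seeing the data. None of these genes was called in the reported edgeR fit, and the cause was not tested. Signs changed with total-count scaling for Pigr (0.026), Abcc2 (0.059), Insig1 (0.030), Fads1 (0.10), Hspa5 (0.14), Ighm (0.13), Fn1 (0.20), Ncl (0.066), Rpl5 (0.12), Fgb (0.12), Hnf4a (0.022) and Cux2 (0.020), and with a mean of at least 5 CPM for Hspa5 (0.020) and Fn1 (0.034). With the replicate block they changed for Cyp2e1 (-0.078), Insig1 (0.016), Hspa5 (0.077), Serpina1e (-0.25), S100a8 (0.082), Ctgf (-0.68) and Cyp7a1 (-0.99). With 2-week replicate 2 against 4-week replicates 2 and 3 they changed for Pigr (0.32), Abcc2 (0.47), Fads1 (0.069), Fmo2 (0.14), Fn1 (0.044), Car2 (-0.13), Ctgf (-1.89), Ankrd1 (-0.66), Afp (-0.31) and Hnf4a (0.066). Leaving out 1 library at a time gave log2 differences of both signs: Mki67 -1.20 to 0.45, Top2a -0.88 to 0.58, Trp53inp1 -0.033 to 0.40, Jag1 -0.88 to 0.63, Cyp2e1 -0.61 to 3.89, Pigr -0.56 to 0.23, Abcc2 -0.62 to 0.41, Insig1 -0.58 to 0.25, Fads1 -0.30 to 0.10, Atp5a1 -0.50 to 0.037, Hspa5 -0.32 to 0.38, Atf5 -0.39 to 0.46, Fmo2 -0.75 to 0.15, Igfbp4 -0.093 to 0.43, C3 -0.053 to 0.17, S100a8 -1.04 to 2.38, Gzma -2.72 to 0.96, Ighm -0.51 to 0.51, Cxcl12 -0.061 to 0.18, Fn1 -0.16 to 0.20, Col18a1 -0.73 to 0.086, Igfbp5 -0.081 to 0.66, Rpl5 -0.16 to 0.017, Ctgf -1.67 to 0.79, Afp -0.47 to 3.29, Hnf4a -0.51 to 0.18, Cyp7a1 -0.41 to 2.65, Col1a1 -0.24 to 1.28, Ect2 -1.89 to 0.096 and Etnppl -1.47 to 0.13.

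Of the summed marker levels (4 weeks minus 2 weeks, in CPM), the stellate sum was 29.0 with total-count scaling, where the reported value was -82.0, and the mesothelial sum 22.7, where it was -5.52. Leaving out 1 library at a time gave -266 to 59.5 for the stellate, -2.58 to 60.8 for the erythroid, -23.0 to 12 for the mesothelial and -58.3 to 51.4 for the adipocyte sum. The monocyte sum without Spp1, also added after seeing the data, was -166. The muscle sum stayed between -1677 and -1522 and the Kupffer cell sum between -2141 and -1285.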

Other observations

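The 5 genes of this paragraph lie outside every list and were picked after their values were seen. Foxj1, the master factor of motile cilia, had 3.47 and 6.35 CPM at 2 weeks and 1.48, 25.9 and 31.4 CPM at 4 weeks. Dnah5, an outer dynein arm chain, had 1.99 and 0.906 CPM against 0.518, 14.3 and 10.4 CPM. Cfap54, a protein of the ciliary axoneme, had 0.993 and 0.697 CPM against 0.148, 13.8 and 12.6 CPM. In all 3 genes 4-week replicate 1 was the lowest library. Kif12 and Dcdc2a, which ducts express, behaved alike, Dcdc2a with 32.3 and 50.5 CPM against 23.9, 187 and 223 CPM. Without 4-week replicate 1 edgeR called all 5 higher (adjusted p between 0.019 for Cfap54 and 0.035 for Dnah5), and with it 0 of them.

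A pair of macrophage genes outside the marker lists, picked after their values were seen, also had lower means at 4 weeks. The sialic acid receptor Siglec1 had 124 and 117 CPM at 2 weeks and 68.6, 26.7 and 16.9 CPM at 4 weeks. Haem oxygenase Hmox1 had 122 and 72.9 CPM against 87.2, 18.4 and 18.4 CPM, with overlap between the times. Both genes were called lower without 4-week replicate 1 and not with it.

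The most abundant members of the other lists are given here, with 2 weeks before 4 weeks. Of the neutrophil list, Lcn2, an iron-binding defence protein, had 120 and 347 CPM against 294, 668 and 541 CPM, and S100a8 had 8.60 and 91.7 CPM against 36.1, 25.9 and 72.3 CPM. T and NK cell markers were near the limit of detection, with Il2rb at most 2.23 CPM and Gzma at most 4.32 CPM, and so was the pancreatic Cela1, at most 2.89 CPM. Of the B cell list, Cd37 had 15.1 and 13.9 CPM against 12.5, 5.69 and 5.93 CPM, with no overlap, and Ighm had 3.72 and 7.25 CPM against 2.81, 8.17 and 4.88 CPM. Of the interferon list, Bst2 had 138 and 152 CPM against 131, 127 and 103 CPM, and Stat2 had 45.6 and 67.7 CPM against 57.6, 93.0 and 79.5 CPM. Of the stellate list, decorin (Dcn) had 244 and 186 CPM against 99.6, 214 and 111 CPM, and the pericyte gene Rgs5 had 33.8 and 48.3 CPM against 22.9, 281 and 116 CPM. The matrix gene Col18a1 had 2171 and 1230 CPM against 1802, 1053 and 1082 CPM.

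Of the erythroid list, the transferrin receptor Tfrc had 19.5 and 29.98 CPM against 21.9, 38.1 and 41.6 CPM, and Car2 had 14.9 and 21.5 CPM against 30.1, 24.7 and 14.8 CPM. The mesothelial Efemp1 had 192 and 148 CPM against 182, 110 and 137 CPM, and Igfbp5 had 15.1 and 19.5 CPM against 14.9, 37.1 and 17.6 CPM. The lipases Lpl and Pnpla2 led the adipocyte list, Lpl with 130 and 161 CPM against 184, 153 and 218 CPM and Pnpla2 with 176 and 128 CPM against 171, 92.3 and 87.1 CPM. All of these overlapped between the times.

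Hepatocyte metabolism had the same overlap. The zonated genes Rgn and Pigr had 226 and 205 CPM against 183, 232 and 130 CPM, and 2485 and 1426 CPM against 1468, 1917 and 1656 CPM. The bile acid genes Abcc2 and Akr1d1 had 757 and 367 CPM against 454, 545 and 475 CPM, and 872 and 481 CPM against 660, 224 and 269 CPM. Insig1, a regulator of cholesterol synthesis, had 293 and 173 CPM against 309, 168 and 145 CPM. The desaturase Fads1 had 411 and 309 CPM against 348, 360 and 292 CPM, and the glucose transporter Slc2a2 had 938 and 677 CPM against 853, 418 and 531 CPM. The drug-conjugating Sult1a1 had 2937 and 2140 CPM against 3071, 416 and 991 CPM. Gstm1 had 3058 and 1691 CPM against 1400, 1292 and 1508 CPM, and here the 4-week libraries lay below both 2-week libraries. The transaminase Gpt2 had 2071 and 1157 CPM against 1809, 517 and 757 CPM, and the stress factor Atf5 had 262 and 152 CPM against 317, 141 and 174 CPM. 

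The growth factor Igf1 had 1032 and 755 CPM against 829, 772 and 531 CPM, and its binding protein Igfbp4 had 835 and 614 CPM against 498, 1092 and 856 CPM. Igfbp2 had 15.8 and 22.5 CPM against 7.55, 108 and 108 CPM, and the repressor Bcl6 had 11.6 and 14.2 CPM against 10.9, 47.8 and 31.4 CPM. Both were called higher without 4-week replicate 1. Uninduced livers had more Igfbp2 (692 and 406 CPM) than any induced liver, and 68.7 and 28.1 CPM of Bcl6. Complement C3 had 16257 and 13867 CPM against 15883, 17483 and 13630 CPM, fibrinogen Fgb 4827 and 4664 CPM against 4234, 4966 and 4234 CPM, and ceruloplasmin Cp 6692 and 5908 CPM against 7994, 3641 and 4336 CPM. Of the sex-linked and sex-biased genes, Uty had 41.5 and 0.488 CPM against 0, 0 and 0.651 CPM, and Selenbp2 had 331 and 104 CPM against 110, 77.4 and 104 CPM. Fmo2 had 324 and 172 CPM against 194, 182 and 201 CPM, beside 7.70 and 9.46 CPM in uninduced livers. Ddx3y had 1349 counts in 2-week replicate 1 and at most 5 in the other 4 libraries, and Hsd3b5 had at most 6 counts in any, and neither was tested.

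Of the general cell functions, mt-Cytb had 34013 and 18691 CPM against 27466, 15569 and 12070 CPM, and mt-Nd5 had 27324 and 15387 CPM against 18965, 14716 and 11032 CPM. The nuclear ATP synthase genes Atp5a1 and Atp5b had 947 and 650 CPM against 727, 666 and 616 CPM, and 703 and 573 CPM against 632, 510 and 474 CPM. The chaperones P4hb and Hspa5 had 758 and 662 CPM against 859, 496 and 483 CPM, and 429 and 692 CPM against 764, 432 and 473 CPM. The nucleolar Ncl and Npm1 had 686 and 675 CPM against 619, 631 and 606 CPM, and 325 and 369 CPM against 297, 300 and 310 CPM, and in both the groups did not overlap. The ribosomal Rpl4 and Rpl5 had 657 and 738 CPM against 699, 541 and 560 CPM, and 411 and 462 CPM against 409, 430 and 407 CPM.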
